A study of Homo sapiens with 4 samples.

Results

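The genes described here encode kinesins, centromere and kinetochore proteins, and the kinases, cyclins and checkpoint proteins that build and read the mitotic spindle. BE(2)C cells, a human neuroblastoma line in long use, received either siRNA against SSRP1 or a non-targeting control siRNA. The members were chosen by gene symbol in the platform annotation (KIF and KIFC kinesins, CENP, CDCA and AURK genes, mitotic cyclins and their partners, PLK, BUB and related genes), and a topoisomerase gene that the symbols also take in was left out. A gene with more than 1 probe set was read from its brightest, by the mean of the 4 arrays, and no change between the groups entered this rule. The choice gave 90 genes out of 14812 named genes. Each group held 2 samples, each hybridised to 1 Affymetrix whole-transcript array, and RNA was taken 72 hours after transfection. SSRP1 is a subunit of the histone chaperone FACT. All cells went through lipid transfection, so the groups share that treatment, and no untransfected sample is compared here. Whether the 2 samples of a group were separate cultures is not stated, and the spread behind each p-value may therefore be technical.

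Kinesins are motor proteins that walk along microtubules or shorten them. One set of them works in dividing cells, where it separates the spindle poles, moves chromosomes and organises the midzone of the late spindle. Another set carries organelles, vesicles and ciliary cargo, and several of its members are best known from axons. Kinetochores are the protein plates on centromeres that hold spindle microtubules, and the spindle checkpoint delays anaphase until every kinetochore is attached. Many genes of this machinery are transcribed in G2 and mitosis from promoters that carry a CHR element (cell cycle genes homology region), bound by the MuvB complex, together with CCAAT boxes, bound by NF-Y. A neuroblastoma line such as BE(2)C divides and also has neuronal traits, so both kinds of kinesin can be read in it.

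The promoters of the mitotic kinesins shared the CHR element, which the choice by gene symbol had not used. A window from 250 bases before to 50 bases after each gene's start was taken from RefSeq (GRCh38.p14), using the most upstream start where a gene had several, and 75 of the 90 members matched. Of these 75, 14 had more than 1 window, and 69 had a window whose start was the annotated end of the gene. The window read need not be the promoter in use in these cells. CHR elements were searched on both strands as TTTGAA, or as TTTAAA, or else as TTCGAA, and CCAAT boxes as CCAAT. Any CHR element was found in 13 of 14 mitotic kinesin windows (92.9%), in 3 of 20 windows of the other kinesins (15%) and in 25.4% of all 27305 gene windows. Among the 5945 windows of named genes whose mean over the arrays was at or above the median of all named genes, the share was 16.6%, close to that of the other kinesins. A CCAAT box was found in 11 of the 14 mitotic kinesin windows (78.6%), in 7 of the 20 of the other kinesins (35%) and in 35.7% of all windows. Both motifs stood in 11 of the 14 mitotic kinesin windows, in 10.0% of all windows and in 7.06% of the 5945 windows of the brighter genes. These short motifs are matched by letters alone, and a match is not a site of binding. The median GC content was 62% in the mitotic kinesin windows, 68.8% in those of the other kinesins and 58.3% over all windows.

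Windows from 140 bases before to 50 bases after the start follow for genes whose values are described below, 5′ to 3′ on the gene's own strand, with CHR elements and CCAAT boxes of either strand in capitals. The first 4 are mitotic kinesins, MKI67 encodes the proliferation antigen Ki-67, and CDCA3, PRC1 and AURKB act in mitotic entry or at the spindle midzone. KIF21A is a kinesin of neurons and is shown because its change was the largest among the members. The windows lie at chr15:69414209-69414398 (KIF23, plus strand), chr10:89701450-89701639 (KIF20B, plus), chr3:44761654-44761843 (KIF15, plus), chr10:92592990-92593179 (KIF11, plus), chr10:128126374-128126563 (MKI67, minus), chr12:6851237-6851426 (CDCA3, minus), chr15:90994486-90994675 (PRC1, minus), chr17:8210200-8210389 (AURKB, minus) and chr12:39443071-39443260 (KIF21A, minus).
KIF23: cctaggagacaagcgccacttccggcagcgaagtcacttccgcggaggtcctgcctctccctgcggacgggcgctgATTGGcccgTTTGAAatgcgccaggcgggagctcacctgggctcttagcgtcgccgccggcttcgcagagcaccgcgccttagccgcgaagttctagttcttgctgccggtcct
KIF20B: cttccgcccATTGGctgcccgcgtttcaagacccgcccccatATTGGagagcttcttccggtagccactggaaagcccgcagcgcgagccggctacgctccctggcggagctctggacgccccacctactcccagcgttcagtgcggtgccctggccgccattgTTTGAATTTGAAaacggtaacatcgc
KIF15: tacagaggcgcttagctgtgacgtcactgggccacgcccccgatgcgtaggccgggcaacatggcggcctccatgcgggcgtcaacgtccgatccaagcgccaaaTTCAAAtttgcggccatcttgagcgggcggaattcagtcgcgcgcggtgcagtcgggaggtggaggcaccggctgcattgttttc
KIF11: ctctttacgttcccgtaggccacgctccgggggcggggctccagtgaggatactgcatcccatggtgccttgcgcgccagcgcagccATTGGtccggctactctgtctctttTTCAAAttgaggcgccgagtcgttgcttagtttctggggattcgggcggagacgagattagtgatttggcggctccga
MKI67: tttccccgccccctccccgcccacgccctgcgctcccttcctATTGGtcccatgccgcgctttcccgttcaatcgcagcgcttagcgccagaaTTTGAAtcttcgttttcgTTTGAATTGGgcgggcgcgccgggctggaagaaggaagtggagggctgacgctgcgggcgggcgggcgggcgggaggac
CDCA3: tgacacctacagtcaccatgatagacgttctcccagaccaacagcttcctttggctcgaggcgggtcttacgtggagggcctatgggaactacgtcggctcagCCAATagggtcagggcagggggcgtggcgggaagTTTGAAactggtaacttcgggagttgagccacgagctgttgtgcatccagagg
PRC1: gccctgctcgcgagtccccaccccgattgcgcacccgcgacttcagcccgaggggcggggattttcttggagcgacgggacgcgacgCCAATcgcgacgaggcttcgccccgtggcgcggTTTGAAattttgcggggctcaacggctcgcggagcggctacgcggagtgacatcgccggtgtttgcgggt
AURKB: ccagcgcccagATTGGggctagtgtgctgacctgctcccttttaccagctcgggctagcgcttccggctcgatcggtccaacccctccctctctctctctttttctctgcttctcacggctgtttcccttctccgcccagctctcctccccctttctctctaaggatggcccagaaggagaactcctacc
KIF21A: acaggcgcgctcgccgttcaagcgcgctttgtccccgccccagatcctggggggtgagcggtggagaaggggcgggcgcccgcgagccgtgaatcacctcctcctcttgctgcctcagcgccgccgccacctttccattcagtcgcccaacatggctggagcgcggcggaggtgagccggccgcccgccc

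In the KIF23 window TTTGAA began 55 bases and a CCAAT box on the opposite strand 64 bases before the start. KIF11 and KIF15 carried TTTGAA on the opposite strand, beginning 28 and 35 bases before the start, and in PRC1 and CDCA3 it began 20 and 3 bases before it. MKI67 carried TTTGAA at 47 and 29 bases before the start, the second one overlapping a CCAAT box of the opposite strand. KIF20B carried 2 adjoining copies after the start, at 24 and 30 bases. AURKB and KIF21A carried no CHR element in this window. AURKB had 2 windows, of which only the most upstream is shown, so its main promoter may lie elsewhere. With a match in any window of a gene counted, the midzone list, which holds AURKB, still had 3 genes with a CHR element. Among the other lists, CHR elements stood in 4 of 4 spindle checkpoint windows, 3 of 4 midzone windows, 4 of 5 windows of the CDCA and Ki-67 list, 6 of 14 centromere windows and 5 of 14 windows of mitotic cyclins and kinases. In all, 2 pairs of matches overlapped in the members' windows.

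**Figure D1:**
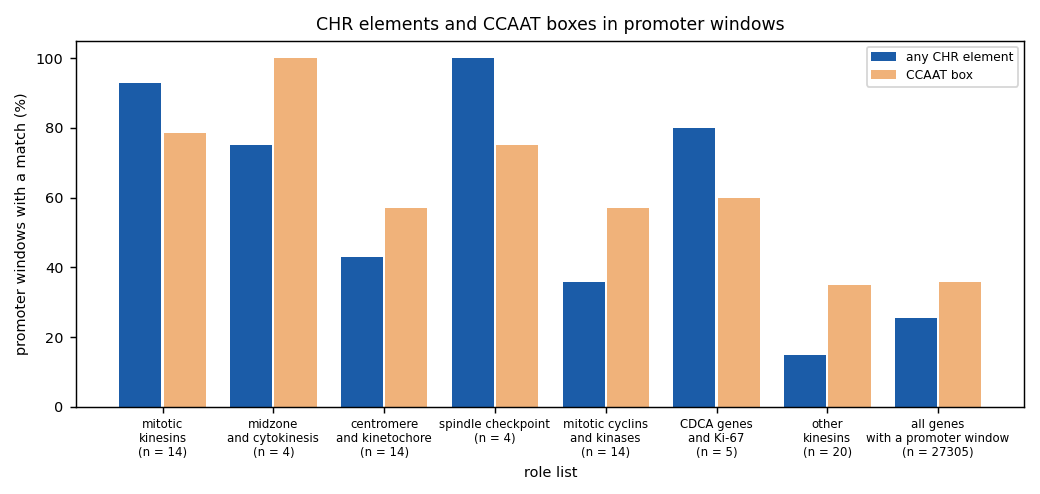
Percentage of promoter windows (y axis) that hold any CHR element (blue) or a CCAAT box (orange) in each role list and over all genes with a window (x axis). CHR elements were found in 92.9% of mitotic kinesin windows, 15% of windows of the other kinesins and 25.4% of all windows.

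The 4 arrays were alike in their overall values. Pearson correlations over all 46255 probe sets lay between 0.9896 and 0.9926, and the medians lay between 3.37 and 3.42 on the log2 scale. The siRNA target was read first: SSRP1 had log2 values of 7.42 and 6.97 with SSRP1 siRNA, against 9.05 and 9.23 with control siRNA, which left 26.0% of the control level (limma adjusted p = 0.0479). With any 1 array left out, 0 of all genes passed, SSRP1 included. Markers of the labelled cell type were present, since all 10 measured sympathetic neuroblast markers (such as DBH, HAND2 and GATA3) lay at or above the median level of all genes. None of the 10 passed the test. Their median change was -0.15, with 8 below 0 (80%, beside 51.7% of all genes). At an unadjusted limma p under 0.05 there were 3 on the lower side (30%, beside 6.03% of all genes). On the higher side there were 2 (20%, beside 6.56%). DBH, the enzyme that makes noradrenaline, had a log2 change of -0.77, and DDC, the decarboxylase that makes dopamine, had 0.43. The part of such shifts in the values of the neuronal kinesins was not tested. Of 8 measured markers of fibroblasts, Schwann cells, blood and endothelium, none passed either. LUM (1.20) and S100B (0.47) had the largest log2 changes among those 8, while DCN (-0.04), SOX10 (0.04) and VWF (-0.06) lay near 0. Means over the arrays ran from 2.59 to 7.87 for the 2 fibroblast markers, from 3.98 to 5.18 for the 4 Schwann and glial markers and from 3.14 to 3.16 for the 2 blood and endothelial markers. The part of such cells in the values below was not tested.

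Across the kinesins, centromere and spindle genes, most members had values lower by small amounts with SSRP1 siRNA, and no member passed the test. The median log2 change, SSRP1 siRNA minus control siRNA, was -0.07 over the 90 members, or 95.3% of the control level, beside -0.01 over all named genes. Of the 90 members 65 lay below 0 (72.2%), beside 51.7% of all genes. The other kinesins did not share this, with 15 of 28 below 0 (53.6%). Both SSRP1 siRNA arrays lay below both control arrays for 39 members (43.3%), beside 22.5% of all genes, and above both for 15 members (16.7%), beside 21.8%. In bulk RNA, fewer cells in mitosis and less RNA per cell cannot be told apart. Transcripts of many mitosis genes are known to rise and fall together with the cell cycle, so the members are not independent of each other.

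The test was limma on all 14812 genes with Benjamini-Hochberg adjustment, passed at an adjusted p under 0.05. It called 0 of the 90 members, beside 14 of all genes (0.0945%). At an unadjusted p under 0.05 there were 10 members on the lower side (11.1%, beside 6.03% of all genes) and 1 on the higher side (1.11%, beside 6.56%). The 10 were KIF21A, KIF17, KIF3B and KIF5A of the other kinesins, and KIF23, KIF20B, KIF15, MKI67, AURKB and CDCA3. The 1 higher member was KIF9, named after its value was seen. The count of 10 was 3 without SSRP1 siRNA replicate 2, 11 without SSRP1 siRNA replicate 1, 4 without control siRNA replicate 1 and 3 without control siRNA replicate 2, and 6 when each array was centred on its median. With that centring 3 members in place of 1 stood on the higher side, and 57 of the 90 members lay below 0 in place of 65. The shares of all genes under these other settings were not counted. The median SE of a member's change was 0.11, and the quartiles of the changes over the 90 members were -0.18 and 0.02. Many members' changes were therefore close to the size of their error or smaller. The members named below were mostly chosen for a small p or a large change.

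**Figure D2:**
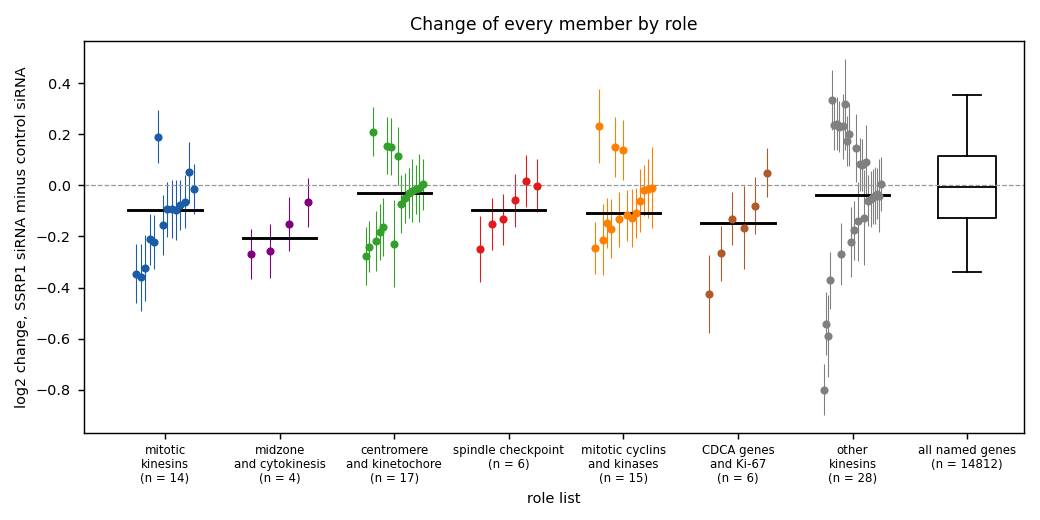
Log2 change, SSRP1 siRNA minus control siRNA (y axis), of every member by role list (x axis), with SE bars and the list's median as a black line. The box at the right shows the interquartile range of all 14812 genes with whiskers at the 5th and 95th percentiles, and the lists of dividing cells have medians between -0.20 and -0.03.

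Mitotic kinesins were lower in most cases. Of 14, 12 lay below 0 and 2 above, 8 had both SSRP1 siRNA arrays below both control arrays (57.1%, beside 22.5% of all genes) and 1 had both above (7.14%, beside 21.8%), and the median change was -0.09. KIF23, a motor of the central spindle needed for cytokinesis, had log2 values of 8.81 and 8.60 with SSRP1 siRNA, against 9.07 and 9.03 with control siRNA. The groups did not overlap, and SSRP1 siRNA replicate 2 was the lowest of the 4. The change was -0.35 ± 0.12 (SE, limma adjusted p = 0.342), which is 78.7% of control (95% interval 64.6 to 95.9%). KIF20B, another kinesin of late mitosis and cytokinesis, had values of 8.03 and 7.74 with SSRP1 siRNA, against 8.30 and 8.20 with control siRNA, a change of -0.36 ± 0.13 (SE, limma adjusted p = 0.363), or -0.22 without SSRP1 siRNA replicate 2. KIF15, a spindle motor that can back up KIF11, had values of 6.48 and 6.37 with SSRP1 siRNA, against 6.62 and 6.88 with control siRNA, a change of -0.32 ± 0.13 (SE, limma adjusted p = 0.39), or -0.19 without control siRNA replicate 2. In both genes every SSRP1 siRNA array lay below every control array.

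Other motors of the spindle showed smaller differences. KIF11, which pushes the spindle poles apart, had values of 9.42 and 9.29 with SSRP1 siRNA, against 9.42 and 9.42 with control siRNA. The groups overlapped, and the 95% interval of its change of -0.06 ran from -0.32 to 0.19. KIF22, a chromokinesin that binds chromosome arms, stood on the other side, with values of 8.24 and 8.36 in SSRP1 siRNA cells, against 8.10 and 8.12 in control siRNA cells. Its change was 0.19 ± 0.10 (SE, limma adjusted p = 0.528), and both SSRP1 siRNA arrays were above both control arrays. KIF20A and KIF18B had changes of -0.21 and -0.22, KIF2C had -0.08 and KIF18A 0.05, and these 4 were named after their values were seen. KIF4A (-0.15) and KIF4B (-0.02) are near-identical copies whose signals the array may not separate. KIFC1 had 4 probe sets with changes between -0.15 and -0.09, and 2 of them held identical values.

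At the spindle midzone all 4 measured genes were lower, with a median of -0.20. In each of the 4 both SSRP1 siRNA arrays lay below both control arrays, as they did for 22.5% of all genes. AURKB, the kinase of the chromosomal passenger complex, had values of 9.42 and 9.37 with SSRP1 siRNA, against 9.68 and 9.66 with control siRNA, a change of -0.27 ± 0.10 (SE, limma adjusted p = 0.366). ECT2, the exchange factor that activates RhoA for the cleavage furrow, had values of 8.04 and 7.90 with SSRP1 siRNA, against 8.22 and 8.23 with control siRNA, a change of -0.26. PRC1, which bundles antiparallel microtubules, had values of 9.19 and 9.10 with SSRP1 siRNA, against 9.24 and 9.35 with control siRNA, a change of -0.15. The fourth, CDCA8 (borealin, a partner of AURKB), had a change of -0.07 with an interval from -0.31 to 0.17. For AURKB alone among these 4 did the unadjusted p lie under 0.05.

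**Figure D3:**
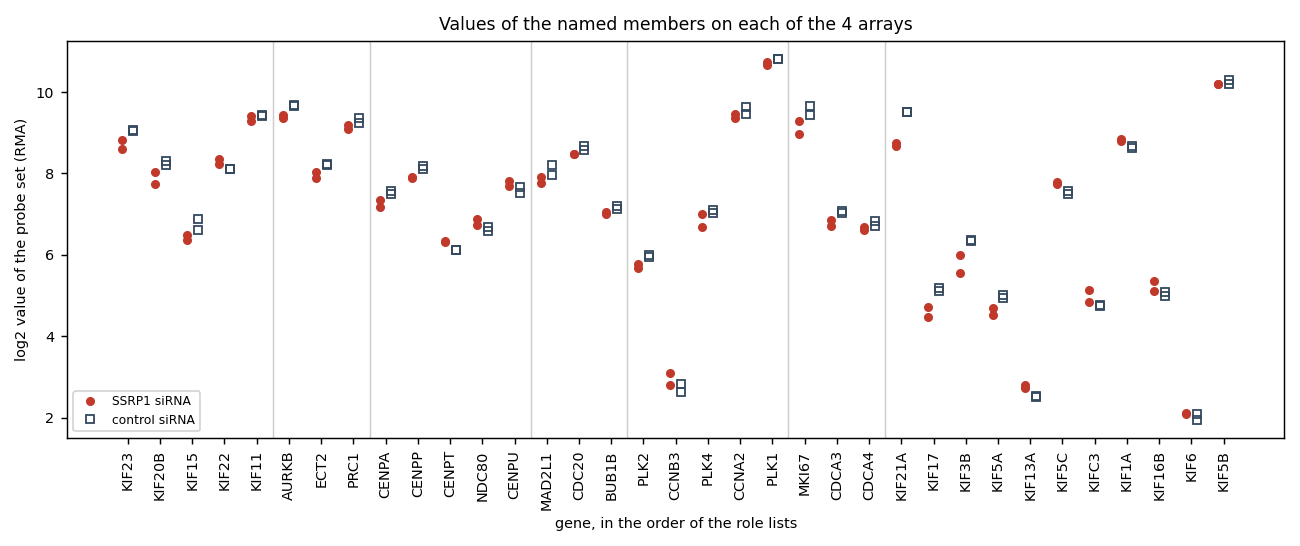
Log2 value of the probe set (y axis) on each array for the members named by rule (x axis), with SSRP1 siRNA arrays as red circles at the left and control siRNA arrays as open squares at the right of each gene. Grey lines part the role lists, and KIF21A shows the widest gap between its groups, at 8.75 and 8.67 with SSRP1 siRNA against 9.52 and 9.50 with control siRNA.

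Genes of centromeres and kinetochores stood close to 0 and on both sides of it. Of the 24 genes of this list 17 were measured, and CENPE, CENPF and NUF2 were among those without a value. Of the 17, 12 lay below 0 (70.6%, beside 51.7% of all genes) and 5 above. The median change was -0.03, and none had an unadjusted p under 0.05. CENPA, the histone H3 variant that marks centromeres, had values of 7.34 and 7.17 with SSRP1 siRNA, against 7.58 and 7.48 with control siRNA. Its groups did not overlap, and the change was -0.28 ± 0.11 (SE, limma adjusted p = 0.4). CENPP, of the inner kinetochore, had values of 7.92 and 7.88 with SSRP1 siRNA, against 8.18 and 8.10 with control siRNA, a change of -0.24. CENPT, which links the centromere to the outer kinetochore, had values of 6.32 and 6.33 with SSRP1 siRNA, against 6.11 and 6.12 with control siRNA, a change of 0.21 ± 0.10 (SE, limma adjusted p = 0.45). NDC80, the microtubule-binding subunit of the outer kinetochore, and CENPU of the inner kinetochore had changes of 0.16 and 0.15. All 3 of these lay above both control arrays on both SSRP1 siRNA arrays. In the whole list of 17, 4 genes lay so (23.5%, beside 21.8% of all genes). Below both control arrays on both SSRP1 siRNA arrays were 6 (35.3%, beside 22.5%).

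Spindle checkpoint genes were lower in 5 of 6 cases, with a median of -0.10 and none at an unadjusted p under 0.05. MAD2L1, which holds back the anaphase-promoting complex, had values of 7.92 and 7.76 with SSRP1 siRNA, against 7.97 and 8.21 with control siRNA, a change of -0.25 ± 0.13 (SE, limma adjusted p = 0.501), or -0.13 without control siRNA replicate 2. CDC20, the activator of that complex, had values of 8.47 and 8.47 with SSRP1 siRNA, against 8.68 and 8.57 with control siRNA, a change of -0.15. BUB1B, a checkpoint kinase-like protein, had values of 7.00 and 7.06 with SSRP1 siRNA, against 7.19 and 7.13 with control siRNA, a change of -0.13. In these 3 of the 6 genes both SSRP1 siRNA arrays lay below both control arrays (50%, beside 22.5% of all genes). The groups overlapped in the other 3. BUB1 and BUB3, named after their values were seen, had changes with intervals from -0.23 to 0.27 and from -0.26 to 0.26.

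Mitotic cyclins and kinases were lower in 12 of 15 cases, with a median of -0.11. PLK2, a kinase of centriole duplication that neurons also use, had values of 5.77 and 5.69 with SSRP1 siRNA, against 6.00 and 5.95 with control siRNA, a change of -0.25 ± 0.10 (SE, limma adjusted p = 0.403). PLK4, the kinase that starts centriole duplication, had values of 7.01 and 6.68 with SSRP1 siRNA, against 7.10 and 7.02 with control siRNA, a change of -0.21. Most of the gap for PLK4 came from SSRP1 siRNA replicate 2. PLK1, the main mitotic polo-like kinase, had values of 10.67 and 10.73 with SSRP1 siRNA, against 10.82 and 10.80 with control siRNA, a change of -0.11, and CCNA2, the S phase and G2 cyclin, had a change of -0.13. CDK1 and AURKA, named after their values were seen, had changes of -0.01 and -0.06 with overlapping groups. CCNB3, with a probe set under the median level, had values of 3.11 and 2.80 with SSRP1 siRNA, against 2.83 and 2.62 with control siRNA, and its groups overlapped. No gene of this list had an unadjusted p under 0.05.

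Among Ki-67 and the CDCA genes, 5 of 6 were lower, with a median of -0.15. MKI67, whose protein coats mitotic chromosomes and marks dividing cells, had values of 9.29 and 8.96 with SSRP1 siRNA, against 9.66 and 9.43 with control siRNA. The groups did not overlap and replicates lay apart within each group, more widely with SSRP1 siRNA. The change was -0.42 ± 0.15 (SE, limma adjusted p = 0.361), or 74.5% of control (95% interval 57.4 to 96.8%), and it was -0.26 when SSRP1 siRNA replicate 2 was left out and -0.59 when replicate 1 of that group was left out. CDCA3, a trigger of mitotic entry, had values of 6.87 and 6.72 with SSRP1 siRNA, against 7.04 and 7.08 with control siRNA, a change of -0.27 ± 0.11 (SE, limma adjusted p = 0.391). CDCA4 had a change of -0.13, and CDCA5 (sororin, which protects cohesion of sister chromatids), named after its value was seen, had a change of 0.05.

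The other kinesins, those not placed in the list of mitotic kinesins, had the widest range of changes among the 7 role lists, from -0.80 to 0.33. Of 28, 15 lay below 0 and 13 above, with a median of -0.04, 8 had both SSRP1 siRNA arrays below both control arrays and 9 had both above (28.6% and 32.1%, beside 22.5% and 21.8% of all genes). KIF21A, a neuronal kinesin that restrains microtubule growth at the cell cortex, had values of 8.75 and 8.67 with SSRP1 siRNA, against 9.52 and 9.50 with control siRNA. Both groups were tight and far apart. The change was -0.80 ± 0.10 (SE), or 57.5% of control (95% interval 48.4 to 68.1%), and the limma adjusted p was 0.0973. It was the only member with an adjusted p under 0.1, where 41 of all genes (0.277%) stood. With an intensity trend in the variance its adjusted p was 0.00399, and it was 0.0133 when the dimmer genes were left out of the fit (those under the median level), so its call depends on these settings. The change lay between -0.84 and -0.76 when any 1 array was left out.

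The 4 kinesin-2 motors, which carry cargo into cilia and dendrites, all lay below 0. KIF3B had values of 5.99 and 5.55 with SSRP1 siRNA, against 6.37 and 6.35 with control siRNA, a change of -0.59 ± 0.16 (SE, limma adjusted p = 0.27). The change of KIF3B was -0.37 when SSRP1 siRNA replicate 2 was left out and -0.81 when replicate 1 of that group was left out, so that 1 array set much of its size. KIF17, the homodimeric kinesin-2, had values of 4.72 and 4.48 with SSRP1 siRNA, against 5.10 and 5.19 with control siRNA, a change of -0.54 ± 0.12 (SE, limma adjusted p = 0.214). Both genes had every SSRP1 siRNA array below every control array. KIF3A, which pairs with KIF3B or KIF3C, and KIF3C had changes of -0.03 and -0.18, and both were named after their values were seen.

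The kinesin-1 heavy chains, the main plus-end motors of axonal transport, had changes of both signs. KIF5A, found in neurons, had values of 4.70 and 4.52 with SSRP1 siRNA, against 5.01 and 4.95 with control siRNA, a change of -0.37 ± 0.11 (SE, limma adjusted p = 0.301). KIF5C, also neuronal, had values of 7.74 and 7.80 with SSRP1 siRNA, against 7.58 and 7.50 with control siRNA, a change of 0.23 ± 0.10 (SE, limma adjusted p = 0.425). KIF5B, made in most cell types, had values of 10.18 and 10.19 with SSRP1 siRNA, against 10.20 and 10.29 with control siRNA, a change of -0.06. The groups did not overlap for any of the 3, with KIF5A and KIF5B on the lower side and KIF5C on the higher. Over all genes 22.5% lay so on the lower and 21.8% on the higher side. The difference between the 3 changes was not tested.

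Several other transport kinesins lay above 0, and none of them passed the test. KIF1A, the carrier of synaptic vesicle precursors, had values of 8.79 and 8.84 with SSRP1 siRNA, against 8.66 and 8.62 with control siRNA, a change of 0.17 ± 0.10 (SE, limma adjusted p = 0.543). KIF16B, a motor of early endosomes, and KIFC3, a minus-end motor, had changes of 0.20 and 0.23, and without SSRP1 siRNA replicate 1 these were 0.08 and 0.09. KIF1B and KIF13B, relatives of KIF1A named after their values were seen, had changes of 0.01 and -0.13. KIF13A, which moves recycling endosomes, had values of 2.73 and 2.79 with SSRP1 siRNA, against 2.53 and 2.52 with control siRNA, a change of 0.24. KIF13A and KIF6 (0.08) had probe sets far below the median level of 4.64, where background weighs most in the value. KIF9, a kinesin of motile cilia, also lay under the median level, with values of 3.45 and 3.23 with SSRP1 siRNA, against 3.03 and 2.99 with control siRNA. In all, 10 members lay under the median level, and their median change was 0.16, beside -0.09 for the 80 at or above it.

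**Figure D4:**
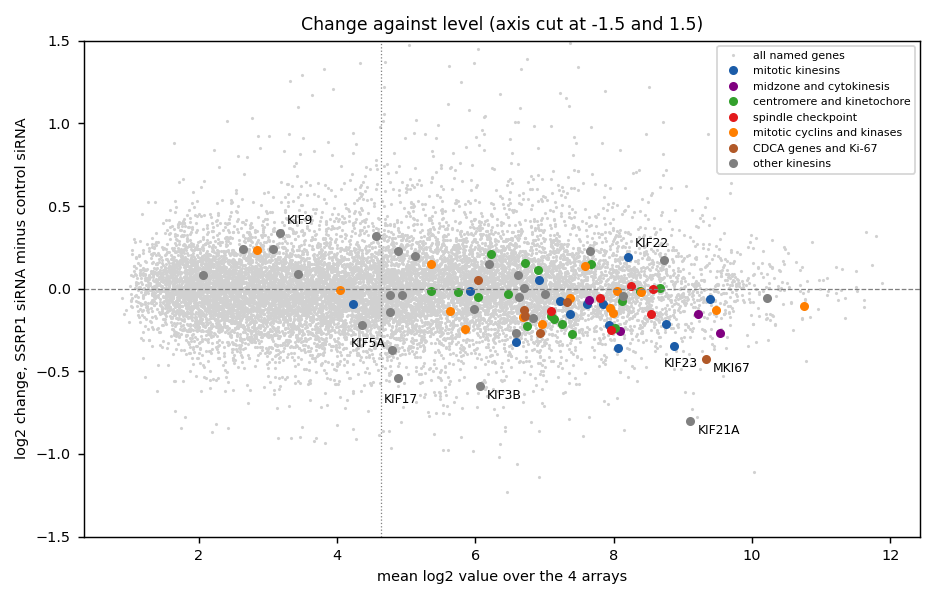
Log2 change, SSRP1 siRNA minus control siRNA (y axis, cut at -1.5 and 1.5), against the mean log2 value over the 4 arrays (x axis) for all named genes (grey) and the members by role list (colours). The dotted line marks the median level of 4.64, and KIF21A, KIF3B and KIF17 lie lowest among the members.

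Without the list of other kinesins, 62 members remained, of which 50 lay below 0 (80.6%) and 12 above. Their median change was -0.09, or 93.7% of the control level. Both SSRP1 siRNA arrays lay below both control arrays for 31 of the 62 (50%, beside 22.5% of all genes) and above both for 6 (9.68%, beside 21.8%). The count of 50 was added after the data were seen, and it lay between 44 and 47 of 62 when any 1 array was left out and at 42 of 62 with median centring. Without MKI67, KIF23, AURKB and CDCA3 as well, 46 of 58 lay below 0. Lower at an unadjusted limma p under 0.05 were 6 of the 62 (9.68%) but 2 of the 58 (3.45%), beside 6.03% of all genes. On the higher side there were 0 in both sets, beside 6.56% of all genes.

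The SSRP1 siRNA arrays did not hold the same values for these genes. Over the 90 members the median difference from the control mean was -0.10 in SSRP1 siRNA replicate 2 and -0.05 in SSRP1 siRNA replicate 1. Replicate 2 was the lower of the SSRP1 siRNA arrays for 62 of the 90 members (68.9%), beside 49.3% of all genes. SSRP1 itself was also lower in replicate 2 than in replicate 1, at 6.97 against 7.42. With 2 arrays no relation between SSRP1 and these genes can be tested. In the list of mitotic kinesins the median deviation from each gene's mean was -0.02 and -0.11 on the SSRP1 siRNA arrays, against 0.04 and 0.10 on the control siRNA arrays, and at the midzone it was -0.05 and -0.14, against 0.08 and 0.13. The other kinesins showed 0.04 and -0.04 on the SSRP1 siRNA arrays, against -0.001 and -0.003 on the control siRNA arrays.

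**Figure D5:**
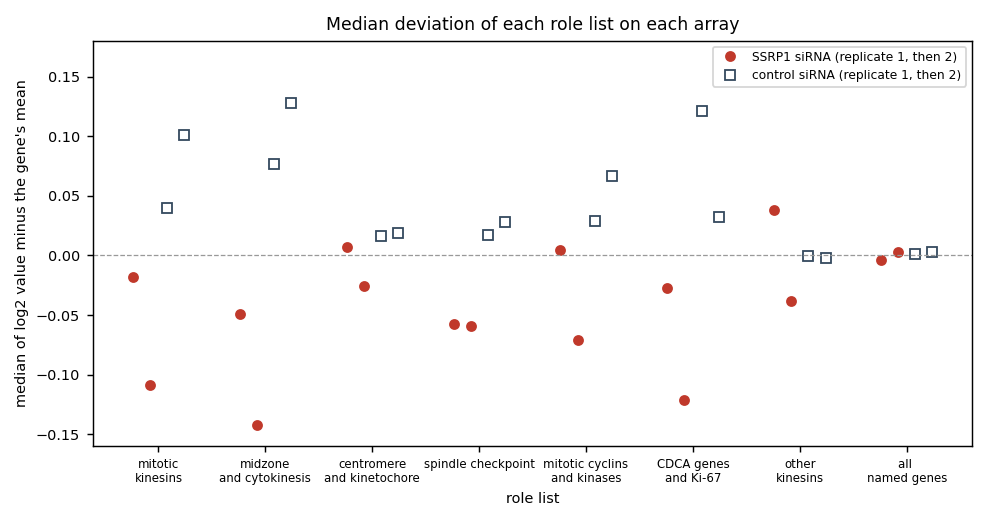
Median over each role list (x axis) of the log2 value minus that gene's mean over the 4 arrays (y axis), for SSRP1 siRNA arrays (red circles) and control siRNA arrays (open squares), replicate 1 then 2. In the mitotic kinesin list the SSRP1 siRNA arrays stood at -0.02 and -0.11, below the control siRNA arrays at 0.04 and 0.10.

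Other genes of the same machinery lay below 0 somewhat more often than above it, and few had a small p. Of 47 further mitosis genes (condensin, cohesin, anaphase-promoting complex, kinetochore and spindle proteins), 29 lay below 0 (61.7%, beside 51.7% of all genes). The median change was -0.04 and none passed the test. At an unadjusted limma p under 0.05, 2 were lower (4.26%, beside 6.03% of all genes) and 1 was higher (2.13%, beside 6.56%). MIS18A, which licenses centromeres for new CENPA, had values of 7.17 and 7.04 with SSRP1 siRNA, against 7.53 and 7.70 with control siRNA, a change of -0.51 ± 0.12 (SE, limma adjusted p = 0.214). CKAP5, a microtubule polymerase, had a change of -0.29. Of 11 regulators that act through MuvB, E2F or FOXM1, 4 lay below 0 (36.4%) and none passed. RBL2, the pocket protein of the repressive form of MuvB, had values of 6.78 and 6.78 with SSRP1 siRNA, against 7.08 and 7.06 with control siRNA, a change of -0.29 ± 0.10 (SE, limma adjusted p = 0.344), and FOXM1, the activator of G2 and mitosis genes, had a change of -0.18.

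S phase genes were read beside them. Of 23 measured, 14 lay below 0 (60.9%, beside 51.7% of all genes), with a median of -0.04, and none passed. CCNE1, the cyclin of S phase entry, had values of 6.43 and 6.84 with SSRP1 siRNA, against 6.20 and 5.95 with control siRNA, a change of 0.56 ± 0.17 (SE, limma adjusted p = 0.308). It was the 1 gene of that list with an unadjusted p under 0.05. GINS1, a subunit of the replicative helicase, had a change of -0.21. A difference between the mitotic and the S phase list was not tested.

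Members with a CHR element in their window and members without one had changes that overlapped widely. Of the 62 members outside the list of other kinesins, 55 had a window. The 35 with a CHR element had a median change of -0.12, with 29 below 0, and the 20 without one had a median of -0.08, with 14 below 0. The changes ran from -0.42 to 0.19 with the element and from -0.27 to 0.23 without it. KIF21A and KIF3B, the members with the largest changes, had no CHR element in their windows.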

How the data were processed

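Total RNA (100 ng per sample) was labelled for Affymetrix Human Gene arrays, per the labels' protocols. The values are log2 values per probe set as deposited, made by the authors with RMA, per the submitters' processing notes. The RMA software and how probe sets were defined are not stated there. The log2 scale was read from the values. Precision is limited by the number of arrays, and no detection values were used, so dim values may be background.

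Samples were grouped by title. Gene names came from the platform annotation, where 15835 of 46255 had 1 symbol, 0 had several and 30420 were unnamed here and left out. The set with the highest mean stood for each of 14812 genes. The test was limma 3.58.1 in R 4.3.3 (lmFit, eBayes, no trend, not robust, no block), all 4 arrays, SSRP1 siRNA minus control siRNA, two-sided, with 2 residual and 3.79 prior degrees of freedom. On simulated data with 200 changed genes among 14812, it called 1.8% of genes changed by 0.5 and 73.9% of those changed by 1 on the log2 scale.

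The members and lists were chosen with earlier results of these data known. Members were named by rule: MKI67, KIF23, AURKB and CDCA3, the 3 smallest p of each role list, the 8 largest changes each way at or above the median level, the 5 highest and 3 lowest means, and any adjusted p under 0.1. In the other lists the 2 smallest p were named. Blood, endothelial, fibroblast and glial markers were few because most were unnamed here. Protein motifs were not analysed here. Alternatives are in the closing section.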

Additional observations from a re-analysis of the deposited data

How the results depend on the processing

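No member passed the test (limma adjusted p under 0.05, 11 members at an unadjusted p under 0.05), and this count stayed at 0 with robust variances, quantile normalization, median centring, probe sets averaged per gene, all probe sets in 1 fit and each array left out in turn (0 to 0). It was 1, KIF21A, with a variance trend, without the genes under the median level and at an adjusted p under 0.1. The count of members lower at an unadjusted p under 0.05, 10 as reported, was 18 with the trend, 17 without the genes under the median level (80 members, fewer genes tested), 14 with quantile normalization, 7 with all probe sets in 1 fit, 6 with median centring and 3 to 11 with 1 array left out, in fits with 1 residual degree of freedom. The cause of the other shifts was not tested. The share of all genes at that unadjusted p was not counted under these settings. The shifts in the count of members can therefore not be set beside those of all genes.

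With the replicate number as a block (replicate block) 0 members passed, 10 were lower at an unadjusted p under 0.05 and KIF21A had a limma adjusted p of 0.0976. Samples of the same number share only that number in the labels. Their deviations from the group means correlated at 0.11 over all genes. With 2 arrays per group the 2 pairs must give the same value, so they are not separate checks. The block changed no other call of a member. Over all genes the test called 14 as reported, 215 with the variance trend, 179 without the genes under the median level, 28 with quantile normalization, 23 with median centring, 9 with robust variances, 6 with the block, and 0 with all probe sets in 1 fit or with any 1 array left out.

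The median change over members lay between -0.10 and -0.05 and the number below 0 between 56 and 66 under all settings. Of 417 values of the 35 named members under alternatives, 0 changed sign and 2, both of KIF21A, passed the test. With 1 array left out, the change of 19 of the 35 moved by over 1.5 times. The number of arrays limits what can be seen: most members' changes are under 0.5, a size the simulated test rarely called, so a p above the threshold does not show that a member was unchanged.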
